A study of Mus musculus with 6 samples.

Results

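The genes described here are the Zfp genes, mouse zinc finger genes whose symbol is Zfp followed by a number alone, that C2C12 cells expressed. C2C12 is an established clonal mouse myoblast line, and its wild-type cells received either PBS as the control or, for 24 hours, 5-fluorouracil (5-FU) in a dose of 5 µg per L. Each group held 3 libraries of mRNA, and the sample labels state a time for 5-FU only. The genes were chosen by measured values: a gene was taken as expressed when its TPM, an abundance scaled for transcript length and library total, averaged at least 2 over the PBS libraries. That rule kept 183 of 370 Zfp genes among the 21899 genes listed. The submitters' design text calls the dose metronomic, meaning low and sustained. 5-FU is a uracil analogue; its products inhibit thymidylate synthase and enter both RNA and DNA.

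Both groups come from 1 cell line, and nothing in the labels says whether replicates were separate cultures, and the spread behind each p-value is that of these 6 libraries, which may be technical. For 5-FU replicates 2 and 3 the cell line entry differs from C2C12 in its last digit, while the titles give C2C12. The libraries held between 19583312 and 23016735 estimated counts. The 183 genes took 0.388% to 0.421% of them, and the lowest estimated count of such a gene in any library was 18.68. All 8 myoblast markers listed (Myod1, Myf5, Des and others) and all 8 markers of differentiated myotubes were above 1 TPM in every library. The summed TPM of the myoblast markers lay between 3279 and 3362 in PBS and between 3631 and 4113 in 5-FU. That of the myotube markers lay between 1463 and 1751 in PBS and between 1431 and 2472 in 5-FU. Its highest value was in 5-FU replicate 2, and the other 5-FU libraries did not exceed the PBS range. The part of this sum in the Zfp values was not tested. Of the markers of epithelial, blood, endothelial, fat and neural cells, Epcam, Rbfox3 and Snap25 were at 0 everywhere, and no list's sum exceeded 8.25 TPM, that of the blood markers.

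Most Zfp proteins carry tandem C2H2 fingers, small folds held together by a zinc ion, each of which can contact a few bases of DNA. Many also carry a KRAB box, which binds the corepressor TRIM28 and through it the methyltransferase SETDB1, and these proteins silence retrotransposons and maintain methylation at imprinted genes. Others have no role at DNA: the symbol also covers proteins that bind RNA, act on the ribosome or transfer ubiquitin or SUMO.

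The PBS levels chose the genes and are given as a description. They ran from 2.03 to 181 TPM, with a median of 8.70 and quartiles of 4.30 and 15.0. Zfp207, a spindle and kinetochore protein also known as BuGZ, had the highest level, 180.8 ± 2.8 TPM in PBS (SD, n = 3) and 192.1 ± 2.7 in 5-FU. Zfp706 followed at 158.5 ± 14.7 TPM in PBS and 132.8 ± 10.2 in 5-FU. Zfp622, a factor of late maturation of the large ribosomal subunit, stood at 87.5 ± 0.5 TPM in PBS. Next came Zfp703, a corepressor, at 73.8 ± 3.9 TPM, and Zfp637 at 67.3 ± 2.0 TPM. These 5 genes did not pass the test described below, with log2 fold changes of counts between -0.088 and 0.061. For Zfp706 the measures differed, with a log2 ratio of mean TPM of -0.26 beside a log2 fold change of counts of -0.036. Among the 183 genes 22 reached 20 TPM and 7 reached 50 TPM. Just inside the threshold stood Zfp82 at 2.03 TPM and Zfp638 at 2.09 TPM. Just outside stood Zfp52 at 1.99 TPM and Zfp60 at 1.96 TPM.

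The one comparison of the design asks how expression differed between 5-FU and PBS. Of the 183 Zfp genes 8 rose and 2 fell in 5-FU, and no change reached 2-fold. The rises were those of Zfp62, Zfp36, Zfp7, Zfp651, Zfp318, Zfp316, Zfp395 and Zfp142, and the falls those of Zfp1 and Zfp91. Zfp36, which encodes the mRNA decay factor tristetraprolin, had the lowest adjusted p of the 10. All 183 genes passed the filter on low counts and were tested in a fit over 12135 genes with edgeR's quasi-likelihood test, and a gene was called at a Benjamini-Hochberg adjusted p under 0.05. Over all genes tested 7.14% were called, and among the Zfp genes 5.46%, so the share of calls was no larger here than in the transcriptome. The share called higher was 4.37% against 3.87% of all genes, and the share called lower 1.09% against 3.26%. At an unadjusted edgeR p under 0.05 there were 43 of the 183, 36 of them higher and 7 lower, where 23.8% of all genes tested passed.

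The number of calls depended on single libraries. Left out in turn, PBS replicates 1, 2 and 3 gave 5, 1 and 3 called Zfp genes, and 5-FU replicates 1, 2 and 3 gave 8, 4 and 2. Without PBS replicate 2 the gene still called was Zfp36, and that refit called 249 genes in all against 866. Of the 10 calls, that of Zfp36 was kept in all 6 refits, and those of Zfp318, Zfp316 and Zfp1 in none.

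**Figure D1:**
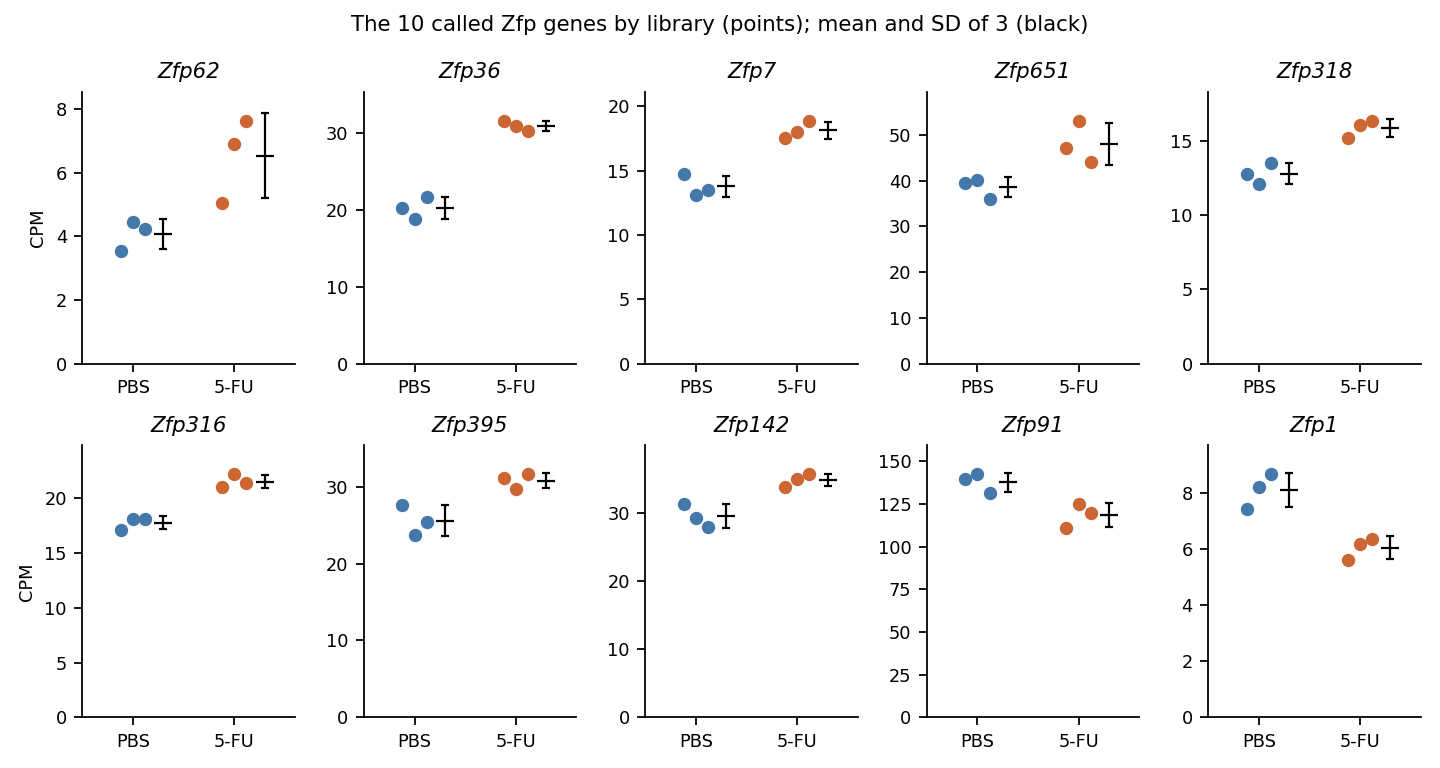
CPM (TMM-scaled counts, linear axes from 0) of the 10 called Zfp genes in each library, with PBS in blue, 5-FU in orange and the mean and SD of 3 libraries in black. In each panel the PBS and 5-FU points are separate. Zfp36 has the tightest 5-FU points relative to its change, from 30.3 to 31.6 CPM.

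Zfp36 (ENSMUSG00000044786) encodes a protein with CCCH fingers that binds AU-rich elements of cytokine and growth factor mRNAs and speeds their decay, and in fibroblasts it is an immediate early gene of the serum response. In CPM, counts scaled to a common library size, it was measured at 20.2, 18.8 and 21.6 CPM in PBS and at 31.6, 30.9 and 30.3 CPM in 5-FU. The lowest 5-FU library was well above the highest PBS library. The mean went from 20.2 ± 1.4 to 30.9 ± 0.65 CPM, a log2 fold change of 0.61 (SE 0.069, edgeR adjusted p = 0.000654, n = 3 per group), and DESeq2 gave an adjusted p of 5.1e-08. Over the 6 refits its edgeR adjusted p ran from 0.00161 to 0.00759. The annotation places an antisense gene, Gm44710, over Zfp36, and without strand their reads cannot be told apart.

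Promoters are shown for Zfp36 and for both genes that fell, and each holds a match to a motif. The promoters of Zfp62, Zfp651, Zfp318, Zfp316 and Zfp142, which are not shown, held no match to any motif searched. The motif marked in the genes that fell was searched only after their promoters had been read. They are the RefSeq sequences (GRCm38.p6), written 5′ to 3′ on the gene's strand from 250 bases before the transcription start to 50 after it, with the match in capitals.
Zfp36: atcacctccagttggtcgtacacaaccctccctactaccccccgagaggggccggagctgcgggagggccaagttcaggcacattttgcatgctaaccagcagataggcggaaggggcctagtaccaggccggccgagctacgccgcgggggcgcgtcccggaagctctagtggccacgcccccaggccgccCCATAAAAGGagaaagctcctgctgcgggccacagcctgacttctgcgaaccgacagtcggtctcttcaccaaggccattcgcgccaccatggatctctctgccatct
Zfp1: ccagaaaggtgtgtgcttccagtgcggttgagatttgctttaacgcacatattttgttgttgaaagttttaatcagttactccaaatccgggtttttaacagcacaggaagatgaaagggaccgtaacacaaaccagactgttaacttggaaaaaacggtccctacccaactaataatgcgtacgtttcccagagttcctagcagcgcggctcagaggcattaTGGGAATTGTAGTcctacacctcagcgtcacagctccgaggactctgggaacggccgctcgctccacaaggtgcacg
Zfp91: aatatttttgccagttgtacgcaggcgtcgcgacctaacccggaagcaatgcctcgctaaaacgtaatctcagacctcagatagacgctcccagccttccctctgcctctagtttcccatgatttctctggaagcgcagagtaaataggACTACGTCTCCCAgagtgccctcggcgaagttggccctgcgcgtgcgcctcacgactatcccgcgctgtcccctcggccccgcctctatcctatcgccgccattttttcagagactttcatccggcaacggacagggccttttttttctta
The Zfp36 promoter lies at chr7:28379179-28379478 on the minus strand. Its capitals mark a CArG box, the element that serum response factor binds, at positions -58 to -49, counted back from the start. The Zfp1 promoter lies at chr8:111643193-111643492 on the plus strand, and the Zfp91 promoter at chr19:12796074-12796373 on the minus strand. Their capitals mark ACTAC and TCCCA with 3 bases of any kind between them, the core of the element that human ZNF143 binds, whose mouse counterpart Zfp143 is among the 183 genes. The match lies on the reverse strand in Zfp1, at -27 to -15, and on the gene's strand in Zfp91, at -101 to -89.

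Zfp1 (ENSMUSG00000055835), a KRAB gene, was measured at 7.45, 8.25 and 8.68 CPM in PBS and at 5.61, 6.21 and 6.38 CPM in 5-FU. The 5-FU libraries all lay below the PBS libraries. The fall from 8.13 ± 0.62 to 6.06 ± 0.41 CPM was the largest among the called genes, with a log2 fold change of -0.42 (SE 0.11, edgeR adjusted p = 0.0472). Without single libraries the adjusted p ran from 0.0587 to 0.153, and DESeq2 gave 0.108. Zfp91 (ENSMUSG00000024695) encodes a ubiquitin ligase that modifies the kinase NIK, and in human cells it is degraded when thalidomide derivatives redirect the ligase subunit cereblon. It was measured at 139, 142 and 132 CPM in PBS and at 111, 125 and 120 CPM in 5-FU. The log2 fold change was -0.22 (SE 0.053, edgeR adjusted p = 0.0341). The call was kept without PBS replicate 3 and without 5-FU replicate 2, and the adjusted p reached 0.150 without PBS replicate 2. Part of its counts were not whole numbers, and the annotation overlaps it with Cntf on the same strand, so reads may have been divided between the genes.

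Zfp62 (ENSMUSG00000046311), which has 26 C2H2 fingers in its translated coding sequence, had the largest rise. It was measured at 3.53, 4.46 and 4.24 CPM in PBS and at 5.05, 6.92 and 7.64 CPM in 5-FU. The 5-FU group lay higher throughout but spread over a wide range, with replicate 1 nearest to PBS. The log2 fold change was 0.67 (SE 0.17, edgeR adjusted p = 0.0392). It was called without 5-FU replicate 1, with an adjusted p of 0.0124, and in none of the other refits, where the adjusted p reached 0.121. Limma-voom gave an adjusted p of 0.0527. Zfp7 (ENSMUSG00000033669), a KRAB gene with 16 fingers, was measured at 14.7, 13.1 and 13.5 CPM in PBS and at 17.5, 18.0 and 18.9 CPM in 5-FU. All 5-FU libraries were above all PBS libraries. The log2 fold change was 0.40 (SE 0.079, edgeR adjusted p = 0.0145). The call was lost without PBS replicate 2, at an adjusted p of 0.0830, and without 5-FU replicate 3, at 0.0551. A second coding gene, Gm49527, overlaps Zfp7 on the same strand.

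Zfp651 (ENSMUSG00000013419), whose human counterpart is ZBTB47, was measured at 39.5, 40.1 and 36.0 CPM in PBS and at 47.1, 53.0 and 44.0 CPM in 5-FU, a log2 fold change of 0.32 (SE 0.074, edgeR adjusted p = 0.0296). The lowest 5-FU library exceeded the highest PBS library by less than the range within 5-FU. The call was kept without 5-FU replicate 1 and without 5-FU replicate 3, and its adjusted p reached 0.0855 without PBS replicate 3. With offsets for transcript length and GC content the log2 fold change was 0.23 and the call was lost (edgeR adjusted p = 0.0572).

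Among the smaller rises, Zfp318 (ENSMUSG00000015597) encodes a nuclear protein that in mouse B cells is needed for the IgD splice form of the antibody heavy chain. It was measured at 12.8, 12.1 and 13.5 CPM in PBS and at 15.2, 16.1 and 16.3 CPM in 5-FU (log2 fold change 0.31). Zfp316 (ENSMUSG00000046658), a KRAB gene, went from 17.1, 18.2 and 18.1 CPM to 20.998, 22.2 and 21.4 CPM (0.28). In both genes the groups were separate. In Zfp318 the lowest 5-FU library and the highest PBS library lay about as far apart as the libraries within a group. Zfp395 (ENSMUSG00000034522), whose human counterpart was found by its binding to the promoter of the Huntington's disease gene, was measured at 27.7, 23.7 and 25.5 CPM in PBS and at 31.2, 29.7 and 31.6 CPM in 5-FU (0.27). Zfp142 (ENSMUSG00000026135), with 37 fingers the longest array of the 183 genes, went from 31.4, 29.2 and 27.9 CPM to 33.9, 35.1 and 35.7 CPM (0.24). Both of these groups were also separate, with PBS replicate 1 the PBS library nearest to 5-FU. The edgeR adjusted p of these 4 genes lay between 0.0353 and 0.0435, and over the refits between 0.0414 and 0.172. Zfp395 and Zfp142 were called without PBS replicate 1, and neither Zfp318 nor Zfp316 was called in any refit. DESeq2 called none of the 4, with adjusted p between 0.0599 and 0.103. With offsets for transcript length and GC content, edgeR gave Zfp318 a log2 fold change of 0.19 (adjusted p = 0.179), Zfp316 one of 0.18 (adjusted p = 0.133) and Zfp142 one of 0.16 (adjusted p = 0.0756), so these calls were lost. Zfp142 has counts that are not whole and overlaps Plcd4 on the opposite strand, Zfp395 and Zfp651 each overlap an antisense gene, and Zfp318 overlaps a pseudogene on the opposite strand.

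**Figure D2:**
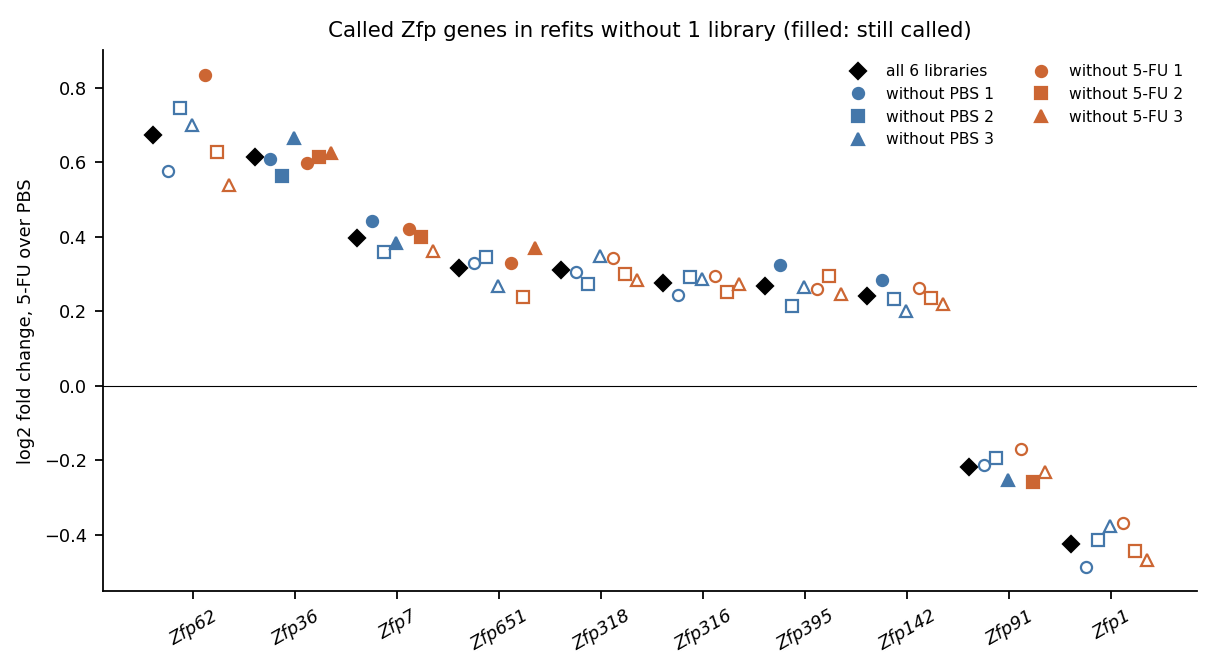
Log2 fold change (5-FU over PBS) of the 10 called Zfp genes with all 6 libraries (black diamonds) and with 1 library left out (blue without a PBS library, orange without a 5-FU library; filled symbols were still called). All 6 symbols are filled for Zfp36 and none for Zfp318, Zfp316 and Zfp1, while in each gene the 7 values share a sign.

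Single genes gave few calls, while the direction over the 183 genes was uneven. The log2 fold change was above 0 in 123 of them (67.2%), against 50.3% of all genes tested. The median was 0.083 with quartiles of -0.025 and 0.19, against 0.0012 over all genes. PBS and 5-FU values did not overlap in 55 Zfp genes (30.1%), against 29.3% of all genes. In 45 Zfp genes (24.6%) each 5-FU library lay above each PBS library, against 15.0% of all genes, and in 10 (5.46%) each lay below, against 14.2%. The members' median absolute log2 fold change, 0.12, was close to their median SE of 0.094, and genes of 1 family that are counted in the same libraries are not independent replicates. Since PBS values chose the genes and also enter the comparison, the rule was also applied to the mean of all 6 libraries. It then took 191 genes with a median of 0.091, the same 8 and 2 calls, and 132 values above 0. An edgeR fit with offsets that remove each library's smooth trends with transcript length and GC content gave a median of 0.051 for the 183 genes, against -0.010 for all genes, and 120 values above 0. With library sizes alone in place of TMM factors the medians were 0.097 and 0.016.

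**Figure D3:**
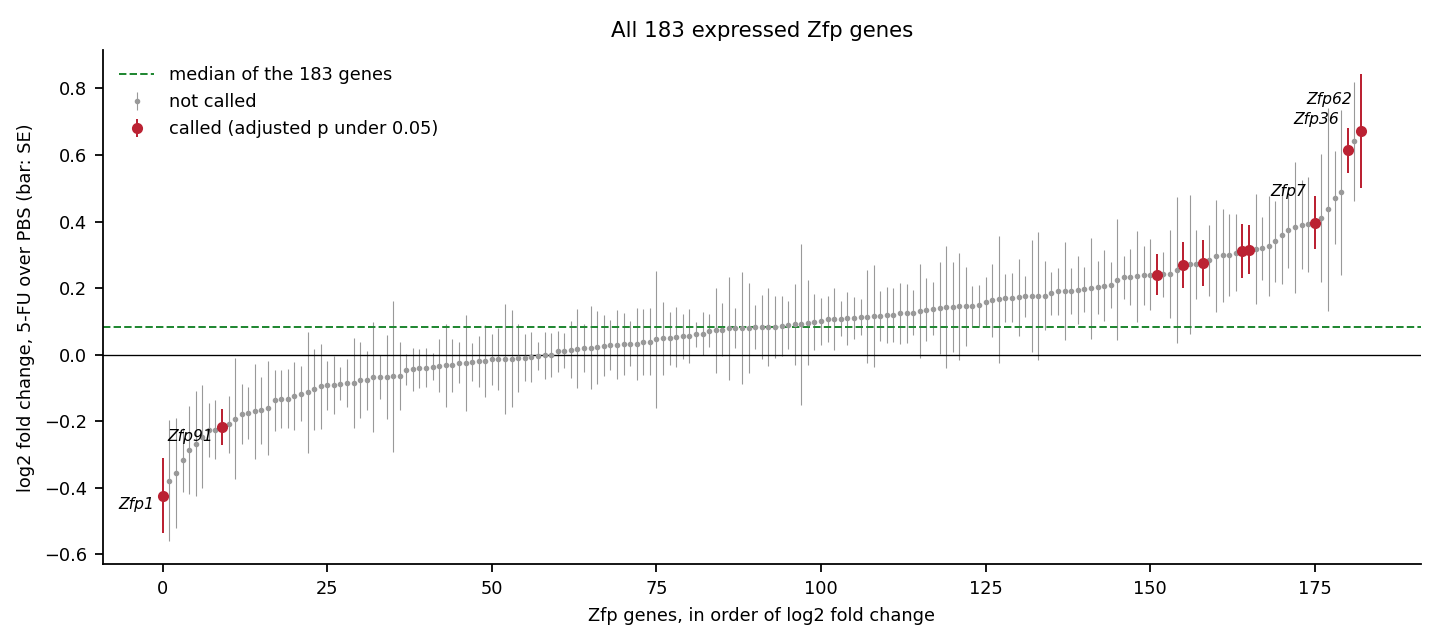
Log2 fold change of the 183 expressed Zfp genes in rank order, with bars of 1 SE, the 10 called genes in red and the median of the 183 as a dashed line. The values run from -0.42 (Zfp1) to 0.67 (Zfp62), and 123 lie above 0.

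By library, the median over the 183 genes of log2 CPM (pseudocount 0.1) minus each gene's mean was -0.017, -0.046 and -0.051 in PBS and 0.0044, 0.059 and 0.057 in 5-FU. The groups did not overlap, and PBS replicate 1 and 5-FU replicate 1 lay nearest to each other. Over all genes tested the same medians lay between -0.00075 and 0.0074. The summed TPM of the 183 genes was 2577, 2540 and 2431 in PBS and 2581, 2686 and 2635 in 5-FU, where PBS replicate 1 and 5-FU replicate 1 were nearly equal.

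**Figure D4:**
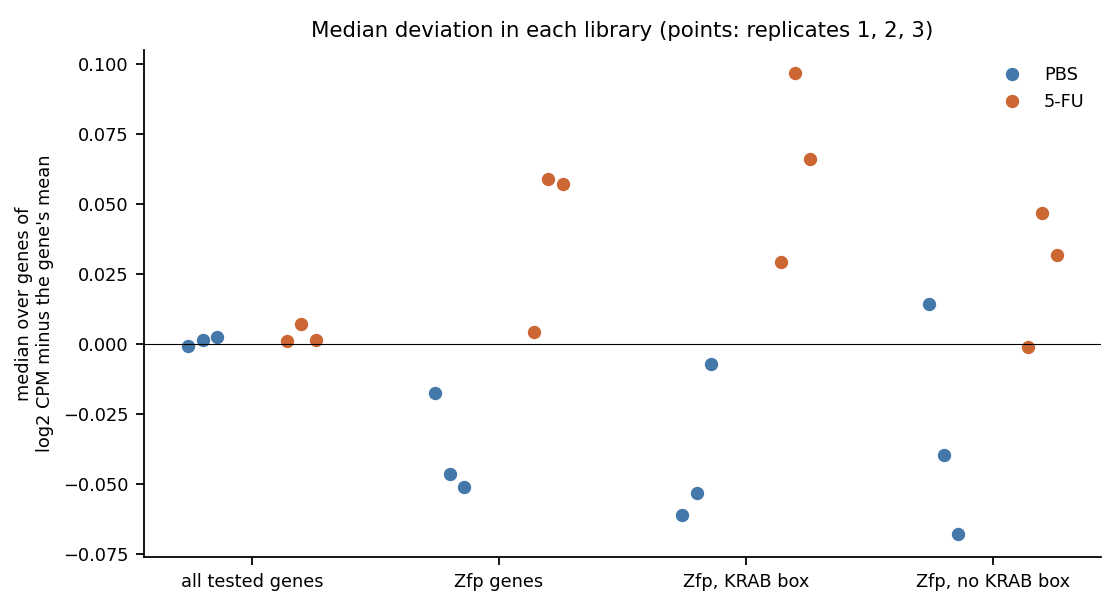
Median over genes of log2 CPM minus the gene's mean over 6 libraries. The sets are all tested genes, the 183 Zfp genes, those with a KRAB box and those in which none was found. Blue points are PBS and orange points 5-FU libraries. The groups are separate for the Zfp genes (highest PBS -0.017, lowest 5-FU 0.0044) and for the KRAB genes, and overlap for the rest of the Zfp genes.

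A KRAB box was assigned from the deposited orthology term for KRAB zinc finger proteins or from a sequence pattern in the translated coding part (GENCODE M21), which together took 79 of the 183 genes. These 79 had a median log2 fold change of 0.11 and 59 values above 0, with Zfp7 and Zfp316 called higher and Zfp1 lower. The other 104 had a median of 0.062 and 64 values above 0, with 6 called higher and Zfp91 lower. Over all genes tested 7.14% were called, a larger share than among the 79 KRAB genes and than among the other 104. A log2 fold change above 0 was found in 50.3% of all genes tested, a smaller share than in either set. The difference between the 79 and the 104 genes was not tested. In the 79 genes the library medians were -0.061, -0.053 and -0.0069 in PBS and 0.029, 0.097 and 0.066 in 5-FU, with no overlap. In the other 104 they were 0.014, -0.040 and -0.068 in PBS and -0.0010, 0.047 and 0.032 in 5-FU, and PBS replicate 1 lay above 5-FU replicate 1. Summed TPM over the 79 genes was 536, 537 and 525 in PBS and 568, 594 and 586 in 5-FU, each 5-FU library above each PBS library. With the length and GC offsets the medians were 0.089 and 0.030.

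KRAB genes also differed from the rest in other measures. Their median PBS level was 4.84 TPM against 11.5, their transcripts' GC content 45.4% against 50.9%, and their number of fingers 11 against 7. No KRAB gene reached 20 TPM, the highest being Zfp746 at 19.2 TPM. Counts were not whole in 35 of the 183 genes (19.1%, against 16.1% of all genes tested), 17 of them KRAB genes, so part of their reads may be shared with similar family members. The part of level, GC content and shared reads in the KRAB median was not tested. The assignment also mattered: by the deposited term alone there were 70 genes with a median of 0.094 against 0.080 for the rest, so that the medians nearly met. By the pattern alone there were 61 with 0.11 against 0.077, and by a stricter pattern 24 with 0.18 against 0.075.

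By level, the genes were banded on the mean TPM of all 6 libraries, since a PBS mean also enters the fold change. That banding was chosen after seeing the data and covers the 191 Zfp genes of at least 2 TPM by this mean. Between 2 and 5 TPM there were 62 Zfp genes, 45 of them KRAB, with a median log2 fold change of 0.16 against 0.056 for all tested genes in that band. Between 5 and 10 TPM the 45 Zfp genes had a median of 0.091 against 0.034, and between 10 and 20 TPM the 61 had 0.082 against 0.020. The 23 Zfp genes from 20 TPM upwards had a median of -0.0043 against -0.016. The Zfp median lay above that of all genes in each of the 4 bands, and the bands were not tested against each other. Banded on the PBS mean, the 183 genes had medians of 0.14, 0.087, 0.075 and -0.0091 from the lowest band to the highest.

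**Figure D5:**
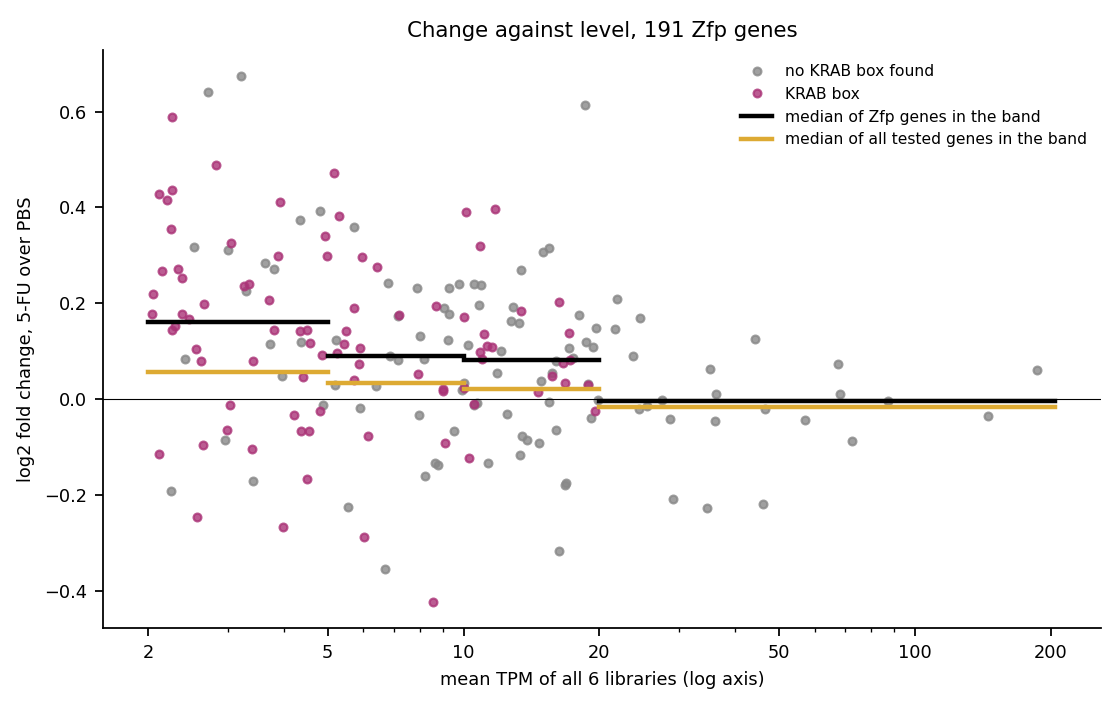
Log2 fold change against the mean level over 6 libraries (TPM, log axis) of the 191 Zfp genes of at least 2 TPM by that mean, with KRAB genes in purple and the rest in grey; horizontal lines give the median of the Zfp genes (black) and of all tested genes (yellow) in 4 bands of level. The black lines step from 0.16 down to -0.0043, and each lies above its yellow line.

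By number of C2H2 fingers, the 34 genes with 1 to 4 had a median of 0.024, the 58 with 5 to 9 one of 0.10, the 57 with 10 to 14 one of 0.091, and the 27 with 15 or more one of 0.14. Of those 27, Zfp62, Zfp7 and Zfp142 were called, all higher. The band of 1 to 4 fingers held 2 genes called higher. That of 5 to 9 held 1 called higher and 2 lower, and that of 10 to 14 held 1 called higher. Of all genes tested 7.14% were called. The median PBS level fell across these bands from 14.7 to 5.26 TPM. No C2H2 finger was found in Zfp36, Zfp330, Zfp365, Zfp503, Zfp703 and Zfp839, whose median was 0.020, and no coding part was available for Zfp469.

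Groups by role were filled with earlier results known and in part with genes off the list of genes named for a known role. Their counts and medians are a description. The first group of 11 genes acts on RNA or the ribosome, and Zfp36 was its one call. Zfp598, a ubiquitin ligase that senses collided ribosomes, was at 61.3 ± 1.6 CPM in PBS and 59.4 ± 0.89 CPM in 5-FU. Zfp622 was at 112 ± 2.6 and 112 ± 3.1 CPM, with a log2 fold change of -0.0043. Zfp593, a factor of large ribosomal subunit assembly, was at 17.9 ± 1.9 and 15.8 ± 0.81 CPM (log2 fold change -0.18, edgeR adjusted p = 0.256). The ribosome-linked genes therefore differed by no more than about their spread. Zfp106, an RNA-binding protein needed for motor function in mice, had a log2 fold change of -0.044, Zfp326, which links RNA polymerase II to splicing, 0.031, Zfp346, which binds double-stranded RNA, 0.13, and Zfp830, a spliceosome protein, 0.086.

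Zfp638, a nuclear RNA-binding protein, was just short of the threshold. It was measured at 5.49, 5.14 and 6.05 CPM in PBS and at 6.25, 9.06 and 10.8 CPM in 5-FU. The groups were separate, but 5-FU replicate 1 stood close to PBS. The log2 fold change was 0.64 (SE 0.18, edgeR adjusted p = 0.0551), with 0.00702 without 5-FU replicate 1, up to 0.174 in the other refits and 0.0248 by DESeq2.

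Of 11 activators that bind promoters none was called, and 7 had a log2 fold change above 0 (median 0.055). Zfp143, which activates small nuclear RNA genes and many coding genes, was at 12.4 ± 1.5 CPM in PBS and 14.0 ± 1.1 CPM in 5-FU. Zfp281, a GC-box factor, was measured at 14.8 ± 0.88 and 12.7 ± 0.96 CPM, a log2 fold change of -0.23 (edgeR adjusted p = 0.148), with no overlap of the groups. Its relative Zfp148 had a log2 fold change of 0.083. Zfp410, known for activating Chd4, the remodelling subunit of the NuRD complex, had one of 0.17 (edgeR adjusted p = 0.174). Neither of these passed the test.

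Of 12 cofactors of chromatin complexes none was called either, and 10 lay above 0, with a median of 0.11. In 6 of the 12 the 5-FU libraries lay above the PBS libraries, as they did in 24.6% of the 183 genes and 15.0% of all genes. Zfp592, Zfp687 and Zfp532, partners in a complex with ZMYND8, had log2 fold changes of 0.11, 0.11 and 0.091. Zfp217, a corepressor amplified in human breast cancers, was at 25.5 ± 1.2 CPM in PBS and 30.2 ± 1.8 CPM in 5-FU (log2 fold change 0.24, edgeR adjusted p = 0.0577, with 0.0388 to 0.172 over the refits). Zfp516, a brown fat activator in mice, had 0.21 (edgeR adjusted p = 0.0886) and Zfp609, a partner of the cohesin loader NIPBL, 0.19. Zfp503 and Zfp703, corepressors of 1 family, had 0.080 and -0.088. With the length and GC offsets the median of the 12 was 0.046.

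Of 8 factors of the KRAB type whose targets or partners are known, none was called and 6 lay above 0 (median 0.14). Not all of the 8 were on the list of genes named for a known role, and the group was filled with earlier results known. Zfp809, which silences retroviral DNA in mouse embryonic stem cells, was measured at 3.15, 3.88 and 3.61 CPM in PBS and at 4.61, 5.24 and 4.94 CPM in 5-FU. The groups were separate, and the gene missed the threshold with a log2 fold change of 0.47 (SE 0.14, edgeR adjusted p = 0.0666). Zfp57 and Zfp445 maintain methylation at imprinted genes. Zfp57 was at 9.29 ± 0.75 and 9.22 ± 0.52 CPM, and Zfp445 at 8.88 ± 1.4 and 11.4 ± 1.9 CPM (log2 fold change 0.36, edgeR adjusted p = 0.160) with overlapping groups. Zfp445 had neither the term nor the pattern and is counted outside the 79 KRAB genes. The genes outside the 79 are thus those in which no KRAB box was found, and more KRAB genes may be among them. Zfp568, which represses a placental transcript of Igf2, had a log2 fold change of 0.049, and Zfp746, a repressor of the PGC-1alpha gene known as PARIS, -0.025.

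The last group held 12 genes, with ligases, signalling and cell cycle proteins among them. Zfp318 and Zfp395 rose and Zfp91 fell, 3 of 12 genes where 7.14% of all genes tested were called. Zfp395 was not on the list of genes named for a known role and was placed here with earlier results known, as was Zfp516 among the cofactors. The share of 3 in 12 depends on how the group was filled and is a description. Of the 12, 5 lay above 0 (median -0.038). Zfp451, a SUMO ligase, was at 28.6 ± 1.8 CPM in PBS and 26.1 ± 3.0 CPM in 5-FU. Zfp207 was at 192 ± 2.0 and 200 ± 0.46 CPM (log2 fold change 0.061, edgeR adjusted p = 0.363). Zfp365, linked to genome stability in human cells, had a log2 fold change of -0.040, Zfp367 -0.086 and Zfp407 0.083. Zfp637 and Zfp706 had 0.011 and -0.036. Of the genes sought for their role, Zfp708, Zfp423, Zfp521 and Zfp292 were under 2 TPM, and Zfp385a, at 33.4 TPM, has a letter after the number.

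Promoter sequences were found for 146 of the 183 genes. The ACTAC and TCCCA pair, sought on both strands, was in 21 of them (14.4%), in 13 of 68 KRAB genes (19.1%), in 4.68% of 9560 tested genes and in 1.95% of all 27025 genes of the table. The motif was searched after the printed promoters, those of Zfp1 and Zfp91 among them, had been read. Its count and the split of calls by it are therefore a description, and its presence in Zfp1 and Zfp91 is no separate result. The 21 genes with it had a median log2 fold change of 0.12, with 15 above 0, none called higher and Zfp1 and Zfp91 called lower. The 125 without it had a median of 0.079, with 6 called higher and none lower. No promoter sequence was found for the called genes Zfp7 and Zfp395. A CArG box was in 3 of the 146 (2.05%), against 1.63% of tested genes. TGACGTCA, the cyclic AMP response element, was in 6 (4.11% against 3.64%), GCGTGGGCG, the EGR element, in 1 (0.685% against 1.46%), and TGATGNAA, the ATF4 element, in 2 (1.37% against 2.63%). A match says that the letters are in the window and nothing of binding.

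By chromosome, 48 of the 183 genes lie on chromosome 7, which holds large clusters of Zfp genes, with a median log2 fold change of 0.097 and Zfp36 as the one call. The 15 genes on chromosome 8 had a median of -0.067, with 5 above 0, and Zfp1 was their call. The 13 on chromosome 9 had a median of 0.19 and the 14 on chromosome 6 one of 0.032. Neighbouring family members can share reads and promoters, and differences between chromosomes were not tested.

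Of 38 partners of KRAB silencing that were matched, from a list of corepressors, heterochromatin and NuRD proteins, 1 rose and 2 fell, and the median log2 fold change was 0.037. That is 7.89% of the list, near the 7.14% of all genes tested. Trim28, the corepressor itself, was at 297 ± 11 CPM in PBS and 295 ± 12 CPM in 5-FU, and Setdb1 at 59.4 ± 5.4 and 60.7 ± 1.2 CPM, so neither differed beyond its spread. Atrx, a remodeller that deposits histone H3.3 with Daxx, rose from 7.99 ± 1.1 to 13.3 ± 2.4 CPM (log2 fold change 0.73, edgeR adjusted p = 0.0141), and was not called without PBS replicate 1, at an adjusted p of 0.0544, or without PBS replicate 2, at 0.0756. Bend3, a repressor bound at heterochromatin, fell from 32.5 ± 1.9 to 17.6 ± 0.84 CPM (-0.88, edgeR adjusted p = 0.000108). H3f3b, a gene for histone H3.3, fell from 583 ± 15 to 442 ± 20 CPM (-0.40, edgeR adjusted p = 0.000654), and both falls were kept in all 6 refits. H3f3a, the other H3.3 gene of the list, was not called. It was at 421 ± 17 CPM in PBS and 416 ± 20 CPM in 5-FU (-0.017, edgeR adjusted p = 0.855).

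The authors' deposited table of 186 changed genes holds 11 Zfp genes, all higher in 5-FU, of which 3 reach the level set here. For Zfp36 the authors' deposited table gives a log2 ratio of 0.65 with an FDR of 7.19e-08, for Zfp62 one of 0.87 with 0.0382, and for Zfp638 one of 0.68 with 0.0348. The ratio in that table is of mean TPM. The remaining 8 Zfp genes of that table were under 2 TPM in PBS and had an FDR there from 0.0885 to 0.341. The deposited table thus holds genes that an adjusted p under 0.05 would leave out. How many of all 186 genes were higher was not counted.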

How the data were processed

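mRNA was sequenced from 3 libraries of PBS-treated and 3 of 5-FU-treated C2C12 cells. Per the file headers, the authors deposited an estimated count and a TPM value per gene and library, with a KEGG orthology term per gene, and a table of changed genes with a log2 ratio of mean TPM, a p-value and an FDR. The submitters' processing notes name StringTie 1.3.1 with no role; an aligner, build and annotation are not given in the sources used. The deposited counts are fractional for 7.31% to 8.04% of a library's values (tolerance 0.005), so some reads were divided, and they were rounded before testing.

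Counts were analysed in R 4.3.3 with edgeR 4.0.16: filterByExpr (10 counts in 3 libraries, 15 in total) kept 12135 genes, TMM factors were 0.995 to 1.01, and the groups were compared by the two-sided quasi-likelihood F test, with p-values adjusted by Benjamini and Hochberg's method across the tested genes. The fit was tested on simulated data. The SE is the log2 fold change divided by the square root of F. CPM are counts scaled by TMM library sizes.

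Same-numbered replicates were not treated as pairs. The KRAB assignment was planned from protein sequence and was made from the deposited term or from a pattern in coding sequence translated from GENCODE M21, which matched 183 of 183 genes (coding part for 182). Overlapping genes and chromosomes come from GENCODE M21, and promoters from RefSeq.

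Named genes were up to 12 rises and 12 falls among called Zfp genes, which took all 8 and 2, the 5 highest PBS levels, the 2 on each side of the threshold, and genes listed for a known role. The genes and lists were chosen with earlier results of these data known. Alternatives were DESeq2 1.42.0, limma-voom (limma 3.58.1), other scalings and filters, a stricter adjusted p (0.01), log2 TPM with pseudocounts of 1 and 0.1, length and GC offsets, other level thresholds, the replicate block and leaving out each library. Other KRAB definitions, the split and the bands on 6 libraries and the restriction to whole counts were added after seeing the data.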

Additional observations from a re-analysis of the deposited data

How the results depend on the processing

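With all 6 libraries edgeR called 8 Zfp genes higher and 2 lower, and 866 genes in all. DESeq2 called 5 higher and 1 lower, library sizes alone 11 and 1, an adjusted p under 0.01 gave 1 and 0 (239 of all genes), and genes with whole counts gave 7 and 1. Limma on log2(TPM + 1) gave 4 and 0 (528 of all genes), on log2(TPM + 0.1) 4 and 0 (513), and without its filter 1 and 0 (156). Leaving out each library gave 1 to 7 higher, 0 to 2 lower and 249 to 656 genes in all. The replicate block gave 13 higher and 2 lower (1199 of all genes), and with length and GC offsets beside it 16 and 9 (2174). The deviations of same-numbered libraries had correlations of -0.0016, 0.087 and 0.13. PBS replicates 2 and 3 each correlated best with the 5-FU library of the same number, and PBS replicate 1 with 5-FU replicate 2 (0.019). The labels do not state that the numbers mark pairs, so they were not taken as pairs, and these correlations do not settle it. The offsets alone gave 8 and 3, with 6 of the 10 calls shared (Zfp142, Zfp316, Zfp318 and Zfp651 were lost), and 42.7% of all called genes higher against 54.3% with the main fit and 63.7% with library sizes alone. The median log2 fold change of the Zfp genes, 0.083, was 0.051 with the offsets, 0.051 with the offsets and the replicate block, 0.12 on log2(TPM + 0.1), 0.055 for genes of at least 5 TPM and 0.12 for each tested Zfp gene. That of the KRAB genes, 0.11, was 0.14 at a threshold of 1 TPM, 0.14 with the threshold on 5-FU, 0.18 for each tested gene and 0.18 for the 24 genes of the strict pattern. Of 47 named Zfp genes 12 changed sign in some alternative, none of them called. The causes were not tested. The median SE of 0.094 limits what 3 libraries a group can show for changes of this size.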

Other observations

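Zfp genes below the level threshold were tested in 114 of 187 cases. Their log2 fold change was above 0 in 92, with a median of 0.26, against 0.11 for all 1513 tested genes under 2 TPM in PBS. Split instead by the mean of 6 libraries, 83 of 106 were above 0, with a median of 0.26 against 0.086. These genes passed a filter that low PBS values alone can fail, so the 2 medians are set side by side as a description. Zfp54, Zfp930 and Zfp30 were called higher, 2.63% of the 114, and none lower, against 2.84% called among the 1513 genes. Zfp54 had 4, 7 and 8 estimated counts in PBS and 12, 22 and 28 in 5-FU (log2 fold change 1.68, edgeR adjusted p = 0.0421, kept in 1 of 6 refits). Zfp930 had 16, 17 and 18 against 33, 28 and 38 counts (0.94, edgeR adjusted p = 0.0365), and Zfp30 had 41, 46 and 51 against 78, 70 and 73 (0.66, edgeR adjusted p = 0.0365), both kept in no refit.

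Other zinc finger families, looked up after the Zfp values had been seen, were not uniform; over all genes tested 3.87% were called higher and 3.26% lower. Of 36 tested Zbtb genes, which pair fingers with a BTB domain, 3 rose and none fell (8.33%), with a median of 0.080. Zbtb20, a repressor known from liver and brain, rose from 23.1 ± 1.7 to 35.7 ± 6.0 CPM (log2 fold change 0.63). Zbtb7b had a log2 fold change of 0.36 and Zbtb4 one of 0.24. The calls of Zbtb20 and Zbtb7b were kept in 6 of 6 refits and that of Zbtb4 in 1. Of 16 Zscan and Zkscan genes 3 rose, 18.8% of them (Zscan29, Zscan22 and Zkscan8, with log2 fold changes of 0.39, 0.49 and 0.51), each kept in at most 1 refit, and the median was 0.16. Of 21 tested genes whose symbol is Klf or Sp followed by a number, 2 fell and none rose (9.52%), with a median of -0.092. Klf and Sp factors bind GC-rich promoters with 3 fingers. The symbol rule did not check for these fingers, so other Sp genes may be included. Klf4 fell from 120 ± 5.0 to 98.3 ± 3.7 CPM (-0.29) and Sp2 from 35.0 ± 1.4 to 28.0 ± 0.66 CPM (-0.32), both kept in all 6 refits.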
